A study of Mus musculus with 12 samples.

Results

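The genes described here are hereditary ataxia genes that code for neither ion channels, the kinase PKC gamma nor the IP3 receptor pathway. The set is made up of Atxn1, Atxn2, Atxn3, Atxn10, Fgf14, Afg3l2, Ttbk2 and Tbp, and a gene was measured when it had a row in the deposited table. Of these 8 genes, 7 had a row among the 7667 genes used. Atxn3 had none and was not analysed here, and only genes that reached a score of 10 in at least 1 condition had a row. The question was whether these genes were lower in 92Q cerebellum, as Purkinje cell genes are.

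The study compared cerebellar RNA of fxSCA7 92Q mice, which carry 92 CAG repeats in the spinocerebellar ataxia gene that names the line, with that of wild-type littermates, at ages of 12 and 29 weeks. All 4 conditions (92Q at 12 weeks, wild type at 12 weeks, 92Q at 29 weeks and wild type at 29 weeks) had 3 libraries, and every library pooled tissue of 3 mice. Neither the promoter that drives the expanded gene nor the cells that express it are stated in the labels. The deposited values are 1 whole-number score per gene and condition, so no value below has a replicate error, no test was made, and "higher" and "lower" describe these 4 values. The error that can be given is rounding, which moves each score by up to 0.5.

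Hereditary ataxias are diseases in which mutations disturb the cerebellum and its output neurons, the Purkinje cells. Several dominant forms come from a CAG repeat in the coding sequence that grows long in patients and gives the protein an expanded run of glutamine. The human genes ATXN1, ATXN2, ATXN3 and TBP belong to that class, as does the gene expanded in the mice studied here. ATXN10 carries its disease repeat in an intron, while AFG3L2 and TTBK2 cause ataxia through point mutations or small deletions and FGF14 through mutations of several kinds. Most of these genes are active in many cell types of the brain and not in Purkinje cells alone.

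The glutamine runs of the wild-type mouse genes can be set beside the 92-repeat allele of the model. The sequences below are the longest runs of glutamine codons in the GENCODE M21 coding sequences, read 5′ to 3′ on the coding strand. Capitals mark that longest run of CAG and CAA codons, and 5 codons on either side are in lower case, some of which code for glutamine too.
Tbp: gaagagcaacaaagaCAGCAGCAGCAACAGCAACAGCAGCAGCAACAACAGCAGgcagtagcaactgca
Atxn3: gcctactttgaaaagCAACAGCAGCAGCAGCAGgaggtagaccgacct
Atxn2: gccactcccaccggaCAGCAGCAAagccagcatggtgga
Atxn1: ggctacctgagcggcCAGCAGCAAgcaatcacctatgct

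Mouse Tbp had the longest run of these, 13 glutamine codons at codons 58 to 70 of 316, of which 9 were CAG and 4 were CAA. The Atxn3 run held 6 such codons, 5 of them consecutive CAG. In Atxn2 and Atxn1 no run was longer than 3 codons. The runs in 2 further polyglutamine disease genes of the mouse were of similar length, with 7 codons in Htt and 3 in Atn1. None of these runs came near 92 codons.

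In the annotation on the same assembly as mm10 the members are protein-coding genes of very different size. Fgf14 spans 699.2 kb on chromosome 14 (123977907 to 124677127, minus strand) and Atxn1 spans 415.3 kb on chromosome 13 (45549755 to 45965008, minus strand). Atxn10 lies on chromosome 15 (85336245 to 85463212, plus strand), Ttbk2 on chromosome 2 (120732816 to 120850604, minus strand) and Atxn2 on chromosome 5 (121711337 to 121816493, plus strand). Tbp is the most compact of the measured members, with 28.5 kb on chromosome 17 (15499888 to 15528379, plus strand). Exons of some members overlap exons of other genes. These are Gmpr for Atxn1, Sh2b3 for Atxn2, Pdcd2 for Tbp and the antisense RNA Gm28932 for Fgf14, all on the opposite strand, and Cdan1 for Ttbk2 on the same strand. Nothing states whether reads were counted by strand, so reads from shared exons may have been split either way. The scores of Gmpr were 19 in 92Q and 20 in wild type at 12 weeks, and 20 and 19 at 29 weeks. Those of Sh2b3 were 16 in both genotypes at 12 weeks and 17 in both at 29 weeks.

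The 7 measured genes lay close together across genotypes. At 12 weeks 4 were higher in 92Q, 1 was lower and 2 had equal scores, with a median log2 ratio of 0.04 on the log2(score + 1) scale. At 29 weeks 3 were higher, 3 lower and 1 equal, with a median of 0.00. None reached 1.1-fold in either direction at either age. Over all genes compared, the median log2 ratio was 0.00 at both ages. Of these genes 32.1% were higher, 36.7% lower and 31.1% equal at 12 weeks, and 49.5%, 26.1% and 24.4% at 29 weeks. At 12 weeks 4.5% of 7660 genes were higher in 92Q by 1.1-fold or more and 8.02% were lower by as much. At 29 weeks 15.0% of 7666 genes were higher and 8.47% lower by 1.1-fold or more. A count of 0 of 7 at 1.1-fold is near these shares and is no result particular to the members. The split of all genes between higher and lower by 1.1-fold depended on scaling. At 12 weeks 345 were higher and 614 lower, but 625 and 359 with columns scaled to equal sums. At 29 weeks 1150 were higher and 649 lower, but 742 and 857 with columns scaled by the median of ratios.

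**Figure D1:**
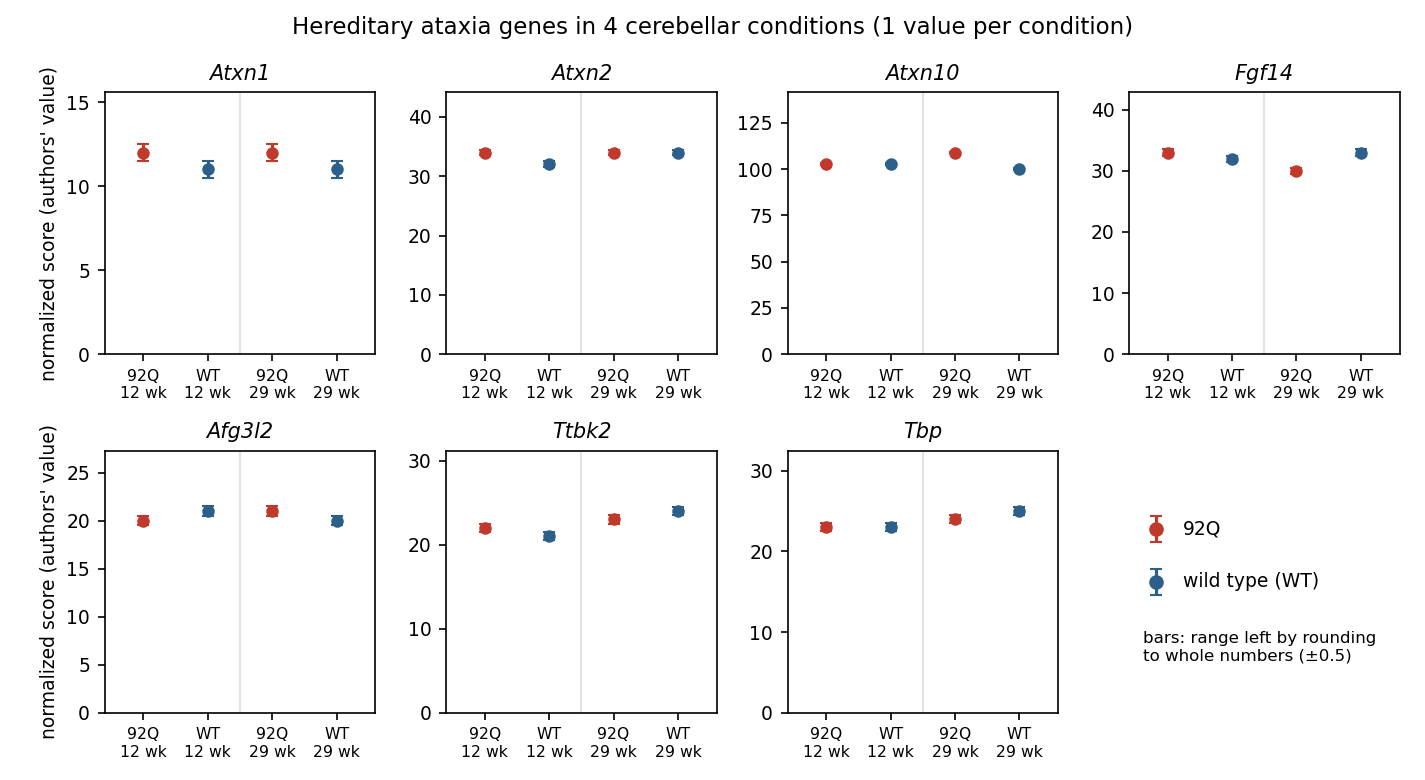
Authors' normalized score of each measured gene (vertical axes, starting at 0) in the 4 conditions (horizontal axes), with 92Q in red, wild type in blue and bars for the range of ±0.5 left by rounding. Each panel is nearly flat, and the lowest Fgf14 score is that of 92Q at 29 weeks (30).

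Atxn1 codes for ataxin-1, a nuclear protein that binds the transcriptional repressor Capicua. Its score was 12 in 92Q and 11 in wild type at 12 weeks, and again 12 in 92Q and 11 in wild type at 29 weeks. The log2 ratio was 0.12 at both ages, and rounding alone allows 0.00 to 0.23. A difference of 1 unit could not be told from rounding in a gene this close to the score of 10 needed for a row.

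Tbp codes for the TATA-binding protein, the core promoter factor used by all RNA polymerases of the nucleus. Its score was 23 in both genotypes at 12 weeks, and 24 in 92Q against 25 in wild type at 29 weeks (log2 ratio -0.06, rounding range -0.11 to 0.00). The gene with the longest glutamine run of the members thus differed by at most 1 unit between genotypes.

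Atxn2 codes for ataxin-2, an RNA-binding protein that interacts with the poly(A)-binding protein. Its score was 34 in 92Q against 32 in wild type at 12 weeks (log2 ratio 0.08, rounding range 0.04 to 0.13). At 29 weeks it was 34 in both. The 12-week difference was the only one between genotypes at that age that was larger than rounding among the members. Of all genes, 11.3% were higher by more than rounding at 12 weeks and 18.7% were lower.

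Atxn10 codes for ataxin-10, a cytoplasmic armadillo-repeat protein. Its score was 103 in both genotypes at 12 weeks. At 29 weeks it was 109 in 92Q against 100 in wild type, a log2 ratio of 0.12 with a rounding range of 0.11 to 0.14. The score of 109 was its highest and the score of 100 its lowest of the 4. In the same comparison 27.1% of all genes were higher by more than rounding, and 18.0% of genes had a larger ratio than Atxn10.

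Fgf14 codes for an intracellular fibroblast growth factor homolog that binds voltage-gated sodium channels at the axon initial segment. Its score was 33 in 92Q and 32 in wild type at 12 weeks. At 29 weeks it was 30 in 92Q against 33 in wild type, a log2 ratio of -0.13 with a rounding range of -0.18 to -0.09. It was the lowest ratio among the members and the only member lower in 92Q by more than rounding, as 14.5% of all genes were at that age. Of all genes compared, 8.54% had a lower ratio. With the pseudocount the difference stayed just inside 1.1-fold (0.912-fold), and it passed that mark under 3 of the 4 other scalings, all but equal upper quartiles.

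Afg3l2 codes for a subunit of the m-AAA protease of the mitochondrial inner membrane. Its score was 20 in 92Q and 21 in wild type at 12 weeks, and 21 in 92Q and 20 in wild type at 29 weeks. Both differences were 1 unit, in opposite directions, and neither exceeded rounding.

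Ttbk2 codes for tau tubulin kinase 2, which is needed to start the assembly of primary cilia. Its score was 22 in 92Q and 21 in wild type at 12 weeks, and 23 in 92Q and 24 in wild type at 29 weeks. These differences too lay within rounding.

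None of the 7 genes stood among the Purkinje cell markers in the 29-week comparison. All 30 measured markers of Purkinje cells had a lower log2 ratio at 29 weeks than Fgf14, the lowest member. The markers had a median of -0.58 and ranged from -0.97 to -0.20, and 15 of them were at least 1.5-fold lower, against 0.73% of all genes. The lowest were the G protein subunit gene Gng13 at 386 in 92Q against 759 in wild type, Arhgef33 at 33 against 58, and Itpka, a kinase of IP3, at 16 against 28. At 12 weeks the marker median was -0.21, and 25 of the 30 had a lower ratio than Afg3l2, the lowest member at that age. With quantile normalization the 12-week marker median was -0.13, and 15 of the 30 were at least 1.1-fold lower in place of 20. The marker list was chosen with these results known, so the contrast is a description and was not tested. In bulk tissue, fewer cells of a type and less RNA per cell cannot be told apart.

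**Figure D2:**
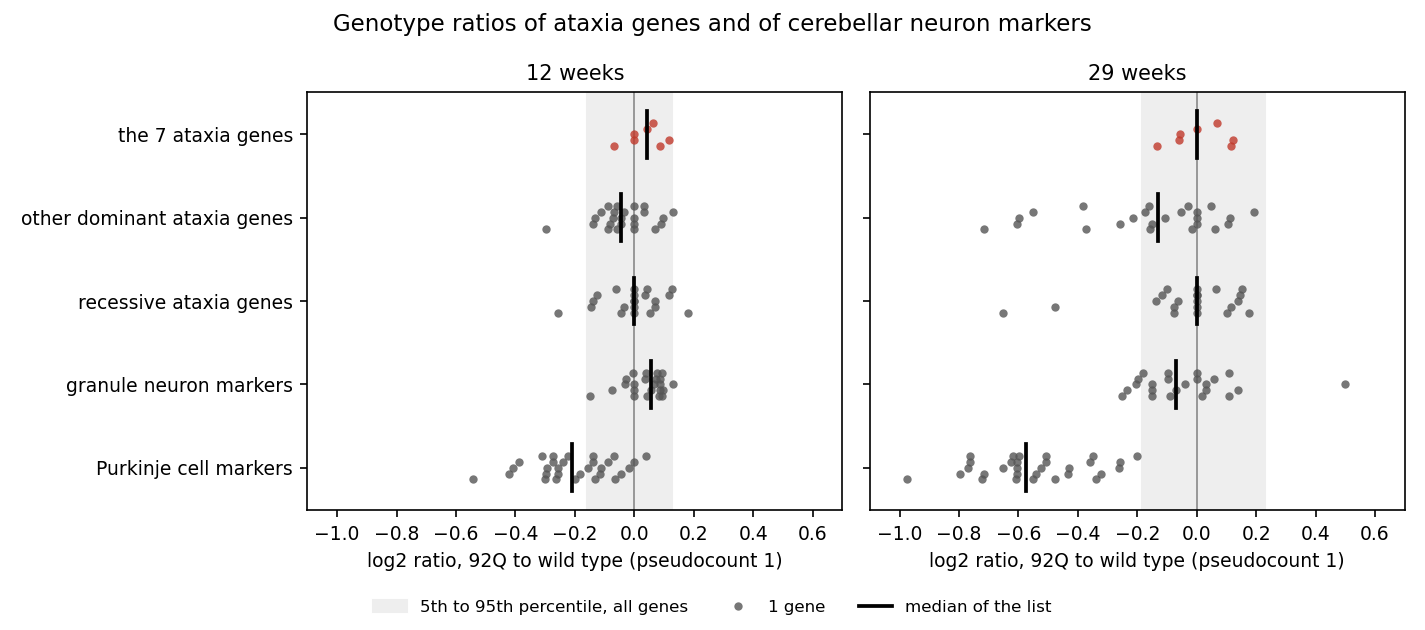
Log2 ratios of 92Q to wild type (horizontal axes) at 12 weeks (left) and 29 weeks (right), where a point is 1 gene, a black line is the median of a list and the grey band holds the central 90% of all genes. At 29 weeks the 7 ataxia genes lie between -0.13 and 0.12, and the Purkinje cell markers lie between -0.97 and -0.20.

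Among other ataxia genes, the 6 with the lowest ratios at 29 weeks are also Purkinje cell markers. Beside the members, 45 genes of recessive or dominant ataxias had a row. Of these, 7 stand on the Purkinje marker list, and all 7 were at least 1.1-fold lower at 29 weeks with a median log2 ratio of -0.60. They include the IP3 receptor Itpr1 at 190 in 92Q against 313 in wild type, and its binding partner Car8 at 167 against 263. Of the 38 that are not on that list, 8 were at least 1.1-fold lower and 5 at least 1.1-fold higher, with a median of 0.00. Over all genes 8.47% were lower and 15.0% higher by as much.

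By disease class as listed here, the median log2 ratio at 29 weeks was -0.13 for 24 other dominant ataxia genes. Of these, 12 were at least 1.1-fold lower and 1 was higher. Without the genes on the Purkinje list, a split chosen after the data were seen, 7 of 19 were at least 1.1-fold lower. Over all genes at 29 weeks, 8.47% were at least 1.1-fold lower and 15.0% higher. The lowest gene on the dominant list was Itpr1. The highest was Spg7, which codes for paraplegin, at 15 in 92Q against 13 in wild type. Spg7 was put on that list here and was its only gene at least 1.1-fold higher. Next was Nop56, a nucleolar protein gene with an intronic repeat in its human disease, at 26 against 24. The 21 recessive ataxia genes had a median of 0.00, with 3 at least 1.1-fold lower and 4 higher, or 4 lower and 1 higher with the median of ratios. Car8 was the lowest, and the cholesterol transporter gene Npc1 (25 against 22) and Phyh, an enzyme of phytanic acid breakdown (89 against 80), were the highest. By family at 29 weeks, 6 of 10 ion channel genes were at least 1.1-fold lower and 1 was higher. The higher gene was Ano10, at 10 in 92Q against 9 in wild type, also counted among the higher genes above. Its difference of 1 unit could not be told from rounding. Nor could that of Cyp27a1, counted as lower among the recessive genes, at 9 against 10. All 4 genes of the IP3 and receptor family were at least 1.1-fold lower, as was 1 of the 2 kinase and phosphatase genes. None of these was 1.1-fold higher. Of 29 ataxia genes outside these families 4 were lower and 4 higher by that measure. The 7 members had 0 in either direction, which is near the shares of all genes.

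**Figure D3:**
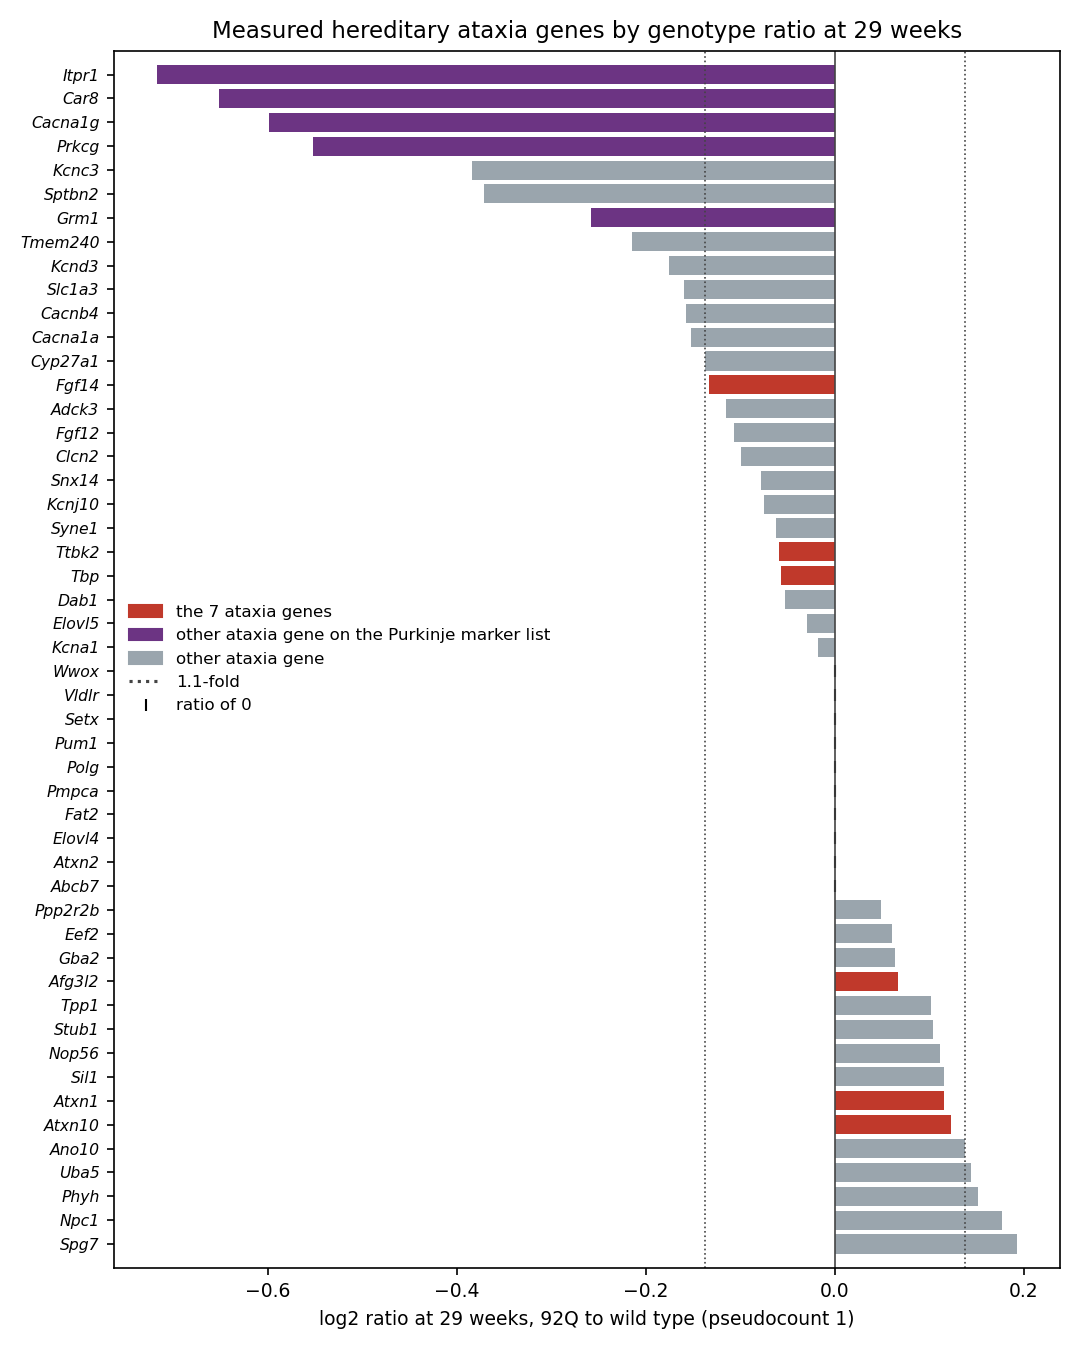
Log2 ratio of 92Q to wild type at 29 weeks (horizontal axis) for 50 of the 52 measured ataxia genes, ordered from the lowest at the top, with dotted lines at 1.1-fold. The 4 lowest bars belong to genes on the Purkinje marker list, and the 7 ataxia genes described here lie inside the dotted lines.

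The polyglutamine disease genes as a class differed little between genotypes. Of 6 measured genes 5 were higher and 1 equal in 92Q at 12 weeks, none by 1.1-fold, with a median log2 ratio of 0.09. Over all genes 32.1% were higher and 31.1% equal at that age. With equal sums or equal upper quartiles 1 of the 6 was at least 1.1-fold higher, and the median was 0.12. At 29 weeks 1 was higher, 3 were lower and 2 were equal, with a median of -0.03, against 49.5%, 26.1% and 24.4% of all genes. The calcium channel gene Cacna1a, which Purkinje cells use heavily, was 77 in 92Q against 72 in wild type at 12 weeks and 71 against 79 at 29 weeks. With the scores as deposited, it alone of the 6 passed 1.1-fold, at 29 weeks. Htt, the huntingtin gene, was 19 against 18 and then 19 against 20. Atn1, a transcriptional corepressor gene, was 109 against 102 and then 111 in both.

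Partners of ataxin-1 and ataxin-2 had list medians of 0.00 at 29 weeks. Of 15 genes of the ataxin-1 list 4 were at least 1.1-fold lower and 0 higher at that age, against 8.47% lower and 15.0% higher over all genes. The lowest was Ywhah, a 14-3-3 protein gene, at 33 in 92Q against 47 in wild type, followed by Rora, a nuclear receptor gene of Purkinje cells, at 50 against 64. Cic, which codes for Capicua, was 58 against 64, and the paralog Atxn1l was 11 in both genotypes at 29 weeks. The highest were Ywhag (289 against 271) and Puf60 (93 against 89). In the ataxin-2 list of 13 genes 1 was lower and 2 were higher by 1.1-fold. Rbfox3, a splicing factor of neurons, was 151 against 174. The 2 that were higher are Sh3gl3, an endophilin gene, at 10 against 8, and Pabpc1, the poly(A)-binding protein gene, at 34 against 30. The paralog Atxn2l was 66 against 65. For Atxn3, which was not analysed here, its partner list had 1 of 11 genes lower, the Josephin-domain gene Josd1 at 16 against 18, and 0 higher.

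The genes listed with Fgf14 are its homologs and the sodium channel subunits it binds or works with. At 29 weeks, of 11 family members and sodium channel partners 4 were at least 1.1-fold lower and 0 higher, with a median log2 ratio of -0.07, against 8.47% lower and a median of 0.00 over all genes. The count of 4 lower was the same under the 4 other scalings. The lowest was Fgf11, a homolog of Fgf14, at 23 in 92Q against 32 in wild type (-0.46), followed by the channel subunit gene Scn4b at 30 against 35 (-0.22). The homologs Fgf12 and Fgf13 were 51 against 55 and 23 in both. The main channel gene Scn8a was 50 against 49. At 12 weeks none of these 11 genes reached 1.1-fold.

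Mitochondrial proteases and partners of Afg3l2 had opposite signs at the 2 ages. At 29 weeks 6 of 16 were higher in 92Q by 1.1-fold or more and 0 lower (median log2 ratio 0.08), against 15.0% of all genes that were higher. At 12 weeks 0 were higher and 2 lower (median -0.08). The partner subunit gene Spg7 was 15 in 92Q and 16 in wild type at 12 weeks, and 15 and 13 at 29 weeks. The rhomboid protease gene Parl was 11 in both at 12 weeks and 12 against 9 at 29 weeks, and Stoml2 was 11 against 13 and then 12 against 10. At scores this low, 1 unit is a large step. The list's median kept its sign at both ages under all 4 other scalings, and 6 genes were higher at 29 weeks under each. The count of lower genes did not hold. At 29 weeks 1 was lower with equal sums and with the median of ratios. At 12 weeks 1 was lower with equal upper quartiles in place of 2.

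For the cilium list around Ttbk2 the median log2 ratio at 29 weeks was 0.09, with 1 of 13 genes at least 1.1-fold higher, Mapre1 at 13 in 92Q against 11 in wild type, and 0 lower. With equal sums 1 was higher and 1 lower, and with the median of ratios 1 was higher and 2 were lower. The homolog Ttbk1 was 21 against 23. In the basal transcription list around Tbp the median was 0.03, with 2 of 19 genes higher, Taf9b at 19 against 17 and Brf2 at 10 against 9, and 0 lower. The Brf2 difference of 1 unit could not be told from rounding. For both lists, the shares of all genes at least 1.1-fold higher and lower at 29 weeks were 15.0% and 8.47%. With the median of ratios 0 of the 19 were higher. Taf1, the largest partner of Tbp in the complex TFIID, was 12 in both genotypes at 29 weeks and 11 in both at 12 weeks.

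**Figure D4:**
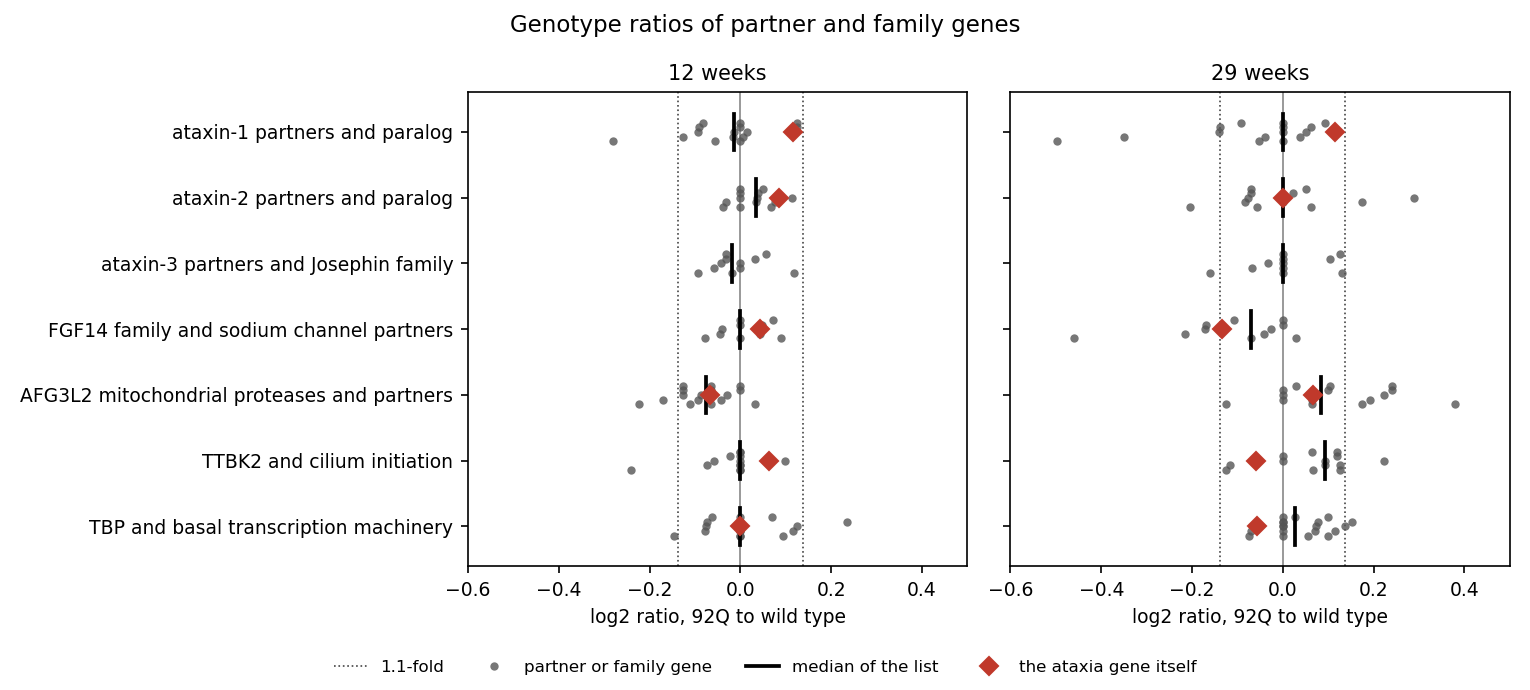
Log2 ratios of 92Q to wild type (horizontal axes) at 12 weeks (left) and 29 weeks (right) for the partner and family lists, where a grey point is 1 gene, a black line is the median of a list and a red diamond is the ataxia gene itself. No red diamond lies outside the dotted 1.1-fold lines, and Fgf14 at 29 weeks (-0.13) is nearest to one.

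With age, Ttbk2 was the only member past 1.1-fold. In wild type its score was 24 at 29 weeks against 21 at 12 weeks (log2 ratio 0.18, rounding range 0.12 to 0.25), and 10.6% of 7663 genes were at least 1.1-fold higher. In 92Q it was 23 at 29 weeks against 22 at 12 weeks. Tbp was 25 at 29 weeks against 23 at 12 weeks in wild type (0.12, rounding range 0.06 to 0.17) and 24 against 23 in 92Q. Fgf14 was 30 at 29 weeks against 33 at 12 weeks in 92Q (-0.13), and 33 against 32 in wild type. Atxn10 was 109 against 103 in 92Q (0.08) and 100 against 103 in wild type (-0.04). In the 92Q comparison with age 15.2% of all genes were at least 1.1-fold higher and 11.9% lower, and in wild type 17.1% were lower. These comparisons share condition columns with the genotype comparisons, so the same Fgf14 score of 30 enters both. The library numbers of 12 and 29 weeks do not overlap in the labels. Age therefore cannot be told apart from any other difference between those sets of libraries. In wild type, scaling to equal sums turned the split of all genes from 813 higher and 1310 lower into 1490 and 723.

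The genotype ratio differed most between ages for Fgf14, whose log2 ratio at 29 weeks minus that at 12 weeks was -0.18 (rounding range -0.26 to -0.09). It was the only member past 1.1-fold in that difference, where 10% of 7659 genes were at least 1.1-fold lower and 20.4% higher. Scaling to equal sums turned that split of all genes from 1565 higher and 769 lower into 1026 and 1286. Atxn10 differed by 0.12 (0.10 to 0.15) and Atxn2 by -0.08 (-0.17 to -0.00). For the other 4 members the difference lay within rounding.

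Several genes had nearly the same pattern over the 4 conditions as a member, measured by the root mean square difference of centred log2 scores. For Fgf14 the nearest were Slc32a1, the vesicular transporter of GABA and glycine, at 83 in 92Q against 91 in wild type at 29 weeks, and Luzp1 at 34 against 37 (differences of 0.0047 and 0.006). For Atxn10 they were Rab31 and Tmem55b (both 0.0004). For Atxn2, Reln had identical scores, as had Ogfod1 for Ttbk2, Tmpo for Tbp and 5 genes for Afg3l2, among them Bbs4 and Mrpl2. For Atxn1 the nearest were Zfp672 and Exoc7. Between 18 genes (for Atxn1) and 120 genes (for Atxn10) of about 4260 with a mean score of at least 20 lay within 0.02.

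Other differences between the conditions accompany these values. All 16 measured microglia markers were higher in 92Q by 1.1-fold or more at 29 weeks (median log2 ratio 0.98), and 4 of 14 compared were at 12 weeks. The 18 oligodendrocyte and myelin markers had a median of 0.16 at 29 weeks and -0.09 at 12 weeks, astrocyte and Bergmann glia markers 0.09 and -0.03, granule neuron markers -0.07 and 0.06, interneuron markers -0.11 and 0.00, and endothelial and mural markers 0.05 and 0.00. All 7 choroid plexus markers were at least 1.1-fold higher at 29 weeks and 4 of 5 lower at 12 weeks, with medians of 1.32 and -1.02. At these ages the medians were 0.38 and -0.21 for meningeal markers, and 0.67 and 0.17 for the 2 blood rows. The choroid plexus gene Ttr was 6 in 92Q against 336 in wild type at 12 weeks and 1403 against 445 at 29 weeks. Xist was 30 against 66 and then 25 against 63, and the Y-linked gene Eif2s3y was 12 against a value listed at 0 and then 15 against 6, so the sexes in the pools and the genotype cannot be told apart. The part of these differences in the members' values was not tested. By the authors' deposited table of 99 selected genes, 0 of the 8 members and 5 of the 45 other ataxia genes were on it.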

How the data were processed

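Total RNA from cerebellum was isolated with TRIzol and RNeasy, made into TruSeq libraries and sequenced on an Illumina HiSeq instrument, per the labels' protocols. Bowtie 0.12.7, SAMtools 0.1.12a, Cuffdiff 1.3.0 and build mm10 are listed without role in the submitters' processing notes. The authors deposited a normalized score, rounded to a whole number, for each gene and condition, so the 3 libraries of a condition cannot be separated and depth is unknown. Not given in the sources used here are its exact unit, annotation and normalization. The column medians were 22 in all 4 conditions, which is why the values were not treated as counts.

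From 7684 rows, 17 with a number in place of a name were left out. Log2 ratios used a pseudocount of 1 and genes scoring at least 5 in either condition, a scale that understates changes of low genes. Rounding ranges moved each score by 0.5. Thresholds were 1.1-fold and 1.5-fold. Levels were not compared between genes, since it is not known whether scores are per length. Positions, overlaps and coding sequences came from GENCODE M21. Members and lists were chosen with earlier results of these data known. Named were the members, all measured polyglutamine genes, up to 2 extremes of each partner or ataxia list in each direction at 29 weeks, up to 3 extremes of marker lists, and the 2 nearest patterns of each member. Other genes named as paralogs, partners or examples were picked with their values in view. Some genes are not reported here by name, though list counts include them. Ratio and scaling steps were tested on simulated data. Python 3.11.15, pandas 2.3.3 and numpy 2.4.6 were used.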

Additional observations from a re-analysis of the deposited data

How the results depend on the processing

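Alternatives were pseudocounts of 0.1 and 5, minimum scores of 1 and 20, and columns scaled to equal sums, to equal upper quartiles, by the median of ratios or by quantile normalization. Over these settings the median log2 ratio of the members lay between 0.02 and 0.08 at 12 weeks and between -0.03 and 0.00 at 29 weeks. A member passed 1.1-fold in these further cases. At 12 weeks 1 was higher in 92Q with equal sums and with equal upper quartiles (0 as reported), and at 29 weeks 1, Fgf14, was lower with equal sums, the median of ratios and quantile normalization (0 as reported). With age, 1 was lower in 92Q with the median of ratios, and 2 were higher in wild type with equal sums and equal upper quartiles. In the difference between ages 2 were lower with equal sums, equal upper quartiles and the median of ratios, and 1 was higher with a pseudocount of 0.1. No setting took a member past 1.5-fold. Scalings of the gene lists were added after the data were seen.

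Background counts at 1.1-fold changed more. At 12 weeks 345 genes higher became 133 with a pseudocount of 5 and 723 with equal upper quartiles, and 614 lower became 338. A minimum score of 20, which tests fewer genes, gave 114 higher and 341 lower at 12 weeks, 541 and 405 at 29 weeks, 530 higher with age in 92Q, and 332 and 858 with age in wild type. In the difference between ages it gave 768 and 419, against 1565 and 769 as reported, and 1026 and 1286 with equal sums. With equal upper quartiles 1251 genes were higher and 838 lower with age in wild type, and 1162 were lower in the difference between ages. Among the 6095 genes with a mean within the members' range, a background chosen after the data were seen, 2.77% were higher and 6.86% lower by 1.1-fold at 12 weeks, and 12.7% and 7.32% at 29 weeks.

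No paired analysis was possible because each condition has a single value in the tables and the labels number no replicates. Leaving out a library was not run for the same reason. In 29-week 92Q 1 of the 3 libraries has a number apart from the others, and its part in the score of Fgf14 cannot be separated. Scores near 10, as for Atxn1, cannot show a difference under about 1.1-fold.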
